A study of Mus musculus with 6 samples.

Results

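The genes that make, carry, bind and sense retinoic acid were examined in fetal mouse lung with and without Igf1, the gene of insulin-like growth factor 1. The set held 9 genes, chosen by name: the retinal dehydrogenases Aldh1a1, Aldh1a2 and Aldh1a3, the retinol carrier Rbp4, the binding proteins Crabp1 and Crabp2, and the nuclear receptors Rara, Rarb and Rarg. They were measured by 12 probe sets whose annotation names a single gene, out of 22626 mouse probe sets and 12393 singly named genes on the array. Whole lungs of Igf1-/- embryos at embryonic day 18.5 (3 arrays), which carry the null allele in every cell, were set against lungs of Igf1+/+ embryos of the same day (3 arrays). Both genotypes came from matings of heterozygous mice on a C57BL/6J background, and no drug treatment is described. The methods have the pups of this day delivered by caesarean section and assisted to breathe before dissection, and the study describes normal breathing for the wild-type embryos, so genotype and breathing before dissection cannot be told apart. The study calls the 3 replicates of a genotype independent and biological. The sample descriptions speak of pooled lungs and the methods of 3 separately processed RNA samples, so whether a replicate is a single animal or a pool is not settled. The p-values measure only the spread between these arrays. In whole-organ RNA, fewer cells of a type and less RNA per cell cannot be told apart.

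Vitamin A travels in blood as retinol bound to RBP4 and is oxidised inside cells, first to retinal and then, irreversibly, to retinoic acid by the ALDH1A enzymes. CRABP proteins hold retinoic acid in the cytoplasm, the receptors RARα, RARβ and RARγ bind DNA with an RXR partner and switch their target genes on when retinoic acid is bound, and CYP26 enzymes break the ligand down. In the lung the pathway is required for the outgrowth of the first buds and is known for its part in forming alveoli.

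RAR and RXR pairs bind DNA at direct repeats of a short core motif, and Rarb and the degrading enzyme gene Cyp26a1 are known as direct targets of retinoic acid through such a repeat. The 250 bases before each gene start in the RefSeq promoter table (GRCm38.p6) were searched on both strands for pairs of core motifs (AGGTCA, the form AGTTCA, the form GGGTCA and the form GGTTCA) in the same orientation and 5 bases apart (DR5). Windows were matched for 7 of the 9 genes, all but Aldh1a3 and Crabp2, and Rarb held the only DR5 among their 13 windows. The repeat was found in 29 of all 32851 windows (0.0883%), and in 1 of 73 windows of other retinoid pathway genes, that of Cyp26a1. The stretches around both are shown because they are the sequences through which these genes are known to read the pathway, with the core motifs in capitals.
Rarb, chr14:16575483-16575559, minus strand: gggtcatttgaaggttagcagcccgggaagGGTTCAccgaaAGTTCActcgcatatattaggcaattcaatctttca
Cyp26a1, chr19:37697746-37697807, plus strand: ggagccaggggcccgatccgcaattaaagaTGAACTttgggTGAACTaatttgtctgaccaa
The Rarb repeat reads along the gene's own strand and covers bases -53 to -37, counted back from the base before the start. The Cyp26a1 repeat lies on the opposite strand, so its core motifs appear as their reverse complements, at bases -32 to -16. The same core motifs spaced by 2 bases (DR2) or 1 base (DR1) were found in none of the 13 windows, against 0.174% and 0.164% of all windows. These forms include those of the known Rarb element, so the match in Rarb was fixed by the choice of motif, and a match of letters is a description, not a binding site.

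No gene of the set passed the test between genotypes. By limma on the deposited log2 values, 0 of the 12 probe sets had an adjusted p under 0.10, the level used for a call here, against 0.557% of all probe sets (126 of 22626). At the wider level of 0.20, Rarb alone passed, 1 of 12, against 2.6% of all probe sets and 0.981% of all in the higher direction. Rarb no longer passed that level when any single array other than Igf1+/+ replicate 3 was left out (limma adjusted p = 0.283 to 0.489). Without adjustment, 2 of 12 had a p under 0.05, Rarb and Rbp4, against 12.5% of all. The signs leaned one way. The difference Igf1-/- minus Igf1+/+ was above 0 at 11 of the 12 probe sets, against 58.2% of all probe sets, with a median of 0.0958 log2 units in the set and 0.0257 over all. The set's median was 0.0498 without Igf1+/+ replicate 1 and 0.128 without Igf1+/+ replicate 3. Quantile normalization of the 6 arrays left 9 of 12 above 0, against 54.2% of all. So did leaving out Igf1-/- replicate 1 or Igf1+/+ replicate 1, against 58.5% and 56.1% of all. Crabp2 (0.00057), Aldh1a2 (0.024) and a probe set of Aldh1a3 (0.025) were barely above 0. With dim probe sets left out, 4 of 4 were above 0, against 51% of all. By probe set the sizes were ordinary, with a median absolute difference of 0.0958 log2 units in the set and 0.0903 over all. At the brightest probe set of each of the 9 genes, 8 were above 0 and the median difference was 0.152. A like value over all genes was not computed.

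**Figure D1:**
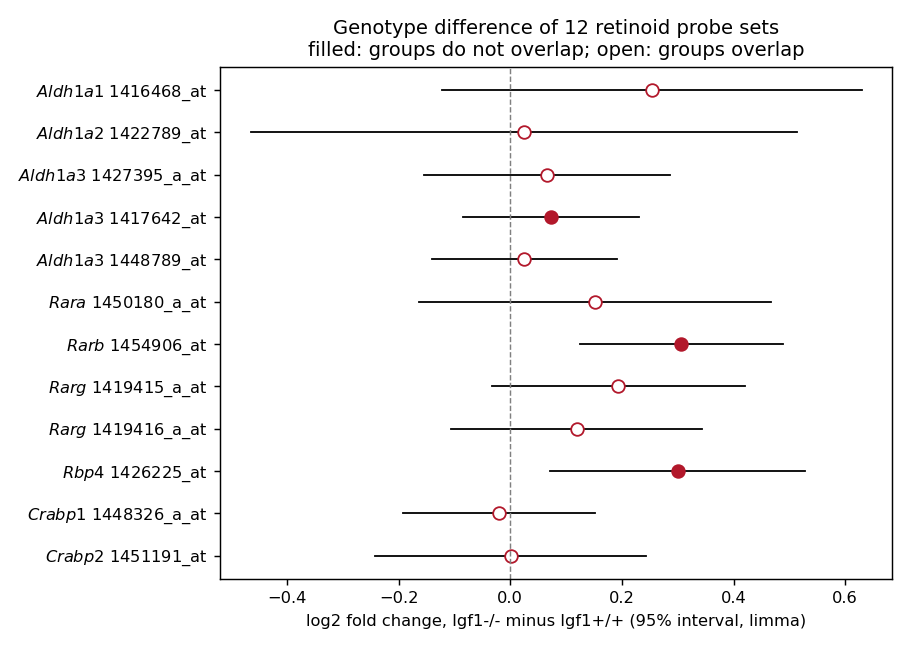
Log2 difference Igf1-/- minus Igf1+/+ of each of the 12 probe sets (x axis, with its 95% interval) by gene (y axis). The intervals of Rarb (0.13 to 0.49) and Rbp4 (0.072 to 0.53) lie above 0, and those of the other probe sets include it.

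All 3 Igf1-/- arrays lay above all 3 Igf1+/+ arrays at 3 of 12 probe sets, 1 each of Aldh1a3, Rbp4 and Rarb, and at none did they all lie below. Over all probe sets 18% separated the genotypes in this way and 10.8% did so with Igf1-/- higher. Without Igf1+/+ replicate 3, 7 of 12 member probe sets separated, against 39% of all, and those of Aldh1a3, Rbp4 and Rarb were still among them. Leaving out any other array gave 3 or 4, against 24% to 29.3% of all. The set included many dim signals, with 8 of its 12 probe sets under the table's median level of 6.88 log2 units, Rarb, Rbp4 and Rara among them.

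Among the enzymes that make retinoic acid, 0 of 5 probe sets were called. Aldh1a1, a cytosolic retinal dehydrogenase, read 10.33, 9.78 and 9.97 log2 units in Igf1-/- lungs, against 9.85, 10.002 and 9.47 in Igf1+/+ lungs. The highest array was Igf1-/- replicate 1 and the lowest Igf1+/+ replicate 3, and the other arrays overlapped. The difference was 0.25 log2 units (SE 0.17, 95% interval -0.12 to 0.63, limma adjusted p = 0.558). It was 0.10 without Igf1-/- replicate 1 or without Igf1+/+ replicate 3, and up to 0.38 without another array.

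Aldh1a2, the main enzyme of retinoic acid synthesis in the embryo, read 7.10, 6.46 and 7.39 log2 units in Igf1-/- lungs, against 6.73, 7.17 and 6.98 in Igf1+/+ lungs. Both the lowest and the highest array were Igf1-/-, so the Igf1+/+ values lay wholly inside the Igf1-/- range. The means were 6.98 ± 0.48 in Igf1-/- lungs and 6.96 ± 0.22 in Igf1+/+ lungs (SD, n = 3 each), a difference of 0.024 (SE 0.22, 95% interval -0.46 to 0.51, limma adjusted p = 0.973). Its spread between arrays of a genotype was 3.38 times the median over all probe sets, and that of Aldh1a1 was 2.503 times, so these arrays bound a change of either gene only loosely.

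Aldh1a3, the third enzyme of the family, was read by 3 probe sets, all dim. The brightest gave 4.64, 4.82 and 4.76 log2 units in Igf1-/- lungs, against 4.57, 4.60 and 4.85 in Igf1+/+ lungs, with overlap and a difference of 0.066 (limma adjusted p = 0.811). A second probe set gave 4.634, 4.71 and 4.72 in Igf1-/- lungs, against 4.61, 4.631 and 4.60 in Igf1+/+ lungs. It kept the genotypes apart, narrowly at the nearest pair of arrays, with a difference of 0.073 (SE 0.070, limma adjusted p = 0.692). The remaining probe set overlapped and differed by 0.025 (limma adjusted p = 0.909).

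**Figure D2:**
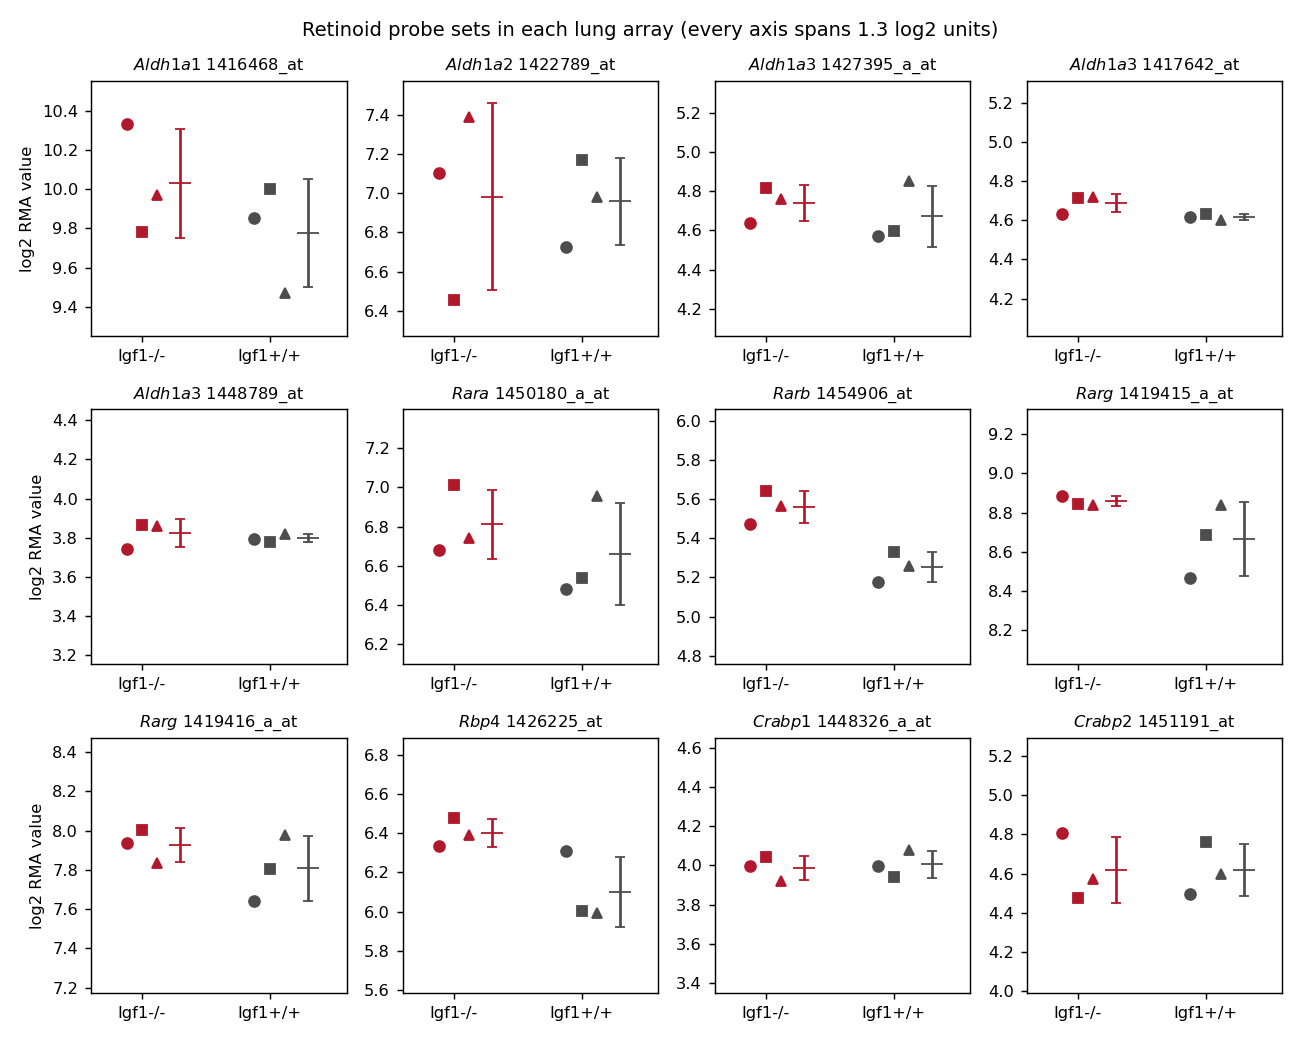
Log2 RMA value on each array (y axis) for every probe set of the 9 genes, Igf1-/- left of Igf1+/+ (x axis); marker shapes name the replicates and the bar is the mean ± SD of 3 arrays. Rarb and Rbp4 show 3 Igf1-/- points above 3 Igf1+/+ points, while the Aldh1a2 points of Igf1-/- lungs lie on both sides of the Igf1+/+ points.

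Rbp4, the plasma carrier of retinol, read 6.33, 6.48 and 6.39 log2 units in Igf1-/- lungs, against 6.31, 6.00 and 5.99 in Igf1+/+ lungs. The genotypes did not overlap, but Igf1+/+ replicate 1 came within reach of the Igf1-/- arrays. The difference of 0.30 (SE 0.10, 95% interval 0.072 to 0.53, unadjusted p = 0.0158) did not pass over all probe sets (limma adjusted p = 0.283). Leaving out 1 array at a time moved it between 0.25 and 0.40.

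Rbp4 is made above all in liver, and liver transcripts varied widely between these lung arrays. All 7 measured genes of a liver list were on average higher in Igf1-/- lungs and 0 were called. Their summed level ran from 8.55 to 11.6 log2 units in Igf1-/- lungs and from 8.19 to 9.71 in Igf1+/+ lungs. Alb, the albumin gene, read 6.84, 10.8 and 7.79 in Igf1-/- lungs, against 8.15, 6.10 and 8.67 in Igf1+/+ lungs, with Igf1-/- replicate 2 far above the rest. That array also had the highest Rbp4 value, and without it the Rbp4 difference was 0.26 (limma adjusted p = 0.497). Igf1+/+ replicate 3 had the next highest Alb value but the lowest Rbp4 value. Over the 6 arrays, Rbp4 had Pearson r of 0.42 to 0.56 and Spearman rho of 0.26 to 0.43 with the 7 liver genes. The part of liver RNA in the Rbp4 difference was not tested. Afp, the fetal albumin gene, and Fgb, a fibrinogen gene, were likewise highest in Igf1-/- replicate 2, with differences of 0.55 and 0.51 (limma adjusted p = 0.875 and 0.737).

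The cytoplasmic binding proteins were dim and near level. Crabp1 read 3.995, 4.04 and 3.92 log2 units in Igf1-/- lungs, against 3.999, 3.94 and 4.08 in Igf1+/+ lungs, a difference of -0.020 (95% interval -0.19 to 0.15, limma adjusted p = 0.932). Crabp2, which passes retinoic acid on to the receptors, read 4.81, 4.48 and 4.57 in Igf1-/- lungs, against 4.50, 4.76 and 4.60 in Igf1+/+ lungs. Its genotypes overlapped fully, with a difference of 0.00057 (95% interval -0.24 to 0.24, limma adjusted p = 0.999).

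Among the receptors, Rarb came closest to the threshold. It read 5.47, 5.64 and 5.57 log2 units in Igf1-/- lungs, against 5.17, 5.33 and 5.26 in Igf1+/+ lungs, so that every Igf1-/- array lay above every Igf1+/+ array. The means were 5.56 ± 0.082 in Igf1-/- lungs and 5.25 ± 0.077 in Igf1+/+ lungs (SD, n = 3 each). The difference of 0.31 (SE 0.080, 95% interval 0.13 to 0.49), a 1.24-fold higher level, had an unadjusted p of 0.00415 and a limma adjusted p of 0.185. The signal lay under the table's median level and the single probe set does not tell Rarb transcripts apart.

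Rara, the most widely expressed receptor of the family, read 6.68, 7.01 and 6.74 log2 units in Igf1-/- lungs, against 6.48, 6.54 and 6.96 in Igf1+/+ lungs. Igf1+/+ replicate 3 reached into the Igf1-/- range while the other two Igf1+/+ arrays lay below it, and the difference was 0.15 (SE 0.14, 95% interval -0.16 to 0.47, limma adjusted p = 0.679). It was 0.30 without Igf1+/+ replicate 3 and 0.052 without Igf1-/- replicate 2.

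Rarg, known above all from skin and skeleton, was read by 2 probe sets. The brighter gave 8.887, 8.846 and 8.8389 log2 units in Igf1-/- lungs, against 8.465, 8.687 and 8.8392 in Igf1+/+ lungs, and again Igf1+/+ replicate 3 alone met the Igf1-/- values. Its difference was 0.19 (SE 0.10, 95% interval -0.032 to 0.42, limma adjusted p = 0.460), which became 0.28 without Igf1+/+ replicate 3 and 0.094 without Igf1+/+ replicate 1. The dimmer probe set gave 7.94, 8.005 and 7.84 in Igf1-/- lungs, against 7.64, 7.81 and 7.98 in Igf1+/+ lungs, with overlap and a difference of 0.12 (limma adjusted p = 0.649).

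Whether members of a family changed unequally could not be called in this design. In each of 7 pairs, the difference between both genes within an array was compared between genotypes by an exact two-sided permutation test, which cannot go below p = 0.1 with 3 arrays against 3, so that no single pair could pass after adjustment. The exact p ran from 0.4 to 1, and each was 1 after adjustment over the 7 pairs. The pair with the smallest p was Rarb with Rarg, where the shift of Rarb exceeded that of Rarg by 0.11 log2 units (SE 0.11). The widest was Aldh1a1 with Aldh1a2, at 0.23 (SE 0.30).

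The probe sets most alike to Rarb across the 6 arrays, among 10428 singly named candidates above the median level, were those of Rars2 (Pearson r = 0.990), the mitochondrial arginyl-tRNA synthetase, Mydgf (r = 0.986), a secreted growth factor, and Ppp1r14c (r = 0.986), an inhibitor of protein phosphatase. The arrays share 2 genotypes, so any gene that separates them in the same way ranks high, and with 6 points these values are a description.

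The rest of the pathway was read from 5 lists, and 0 of its genes were called in either direction. Of the 12 measured genes of retinol transport, storage and uptake, 9 were higher and 3 lower in Igf1-/- lungs, with a median of 0.034 log2 units. Lrp2, the endocytic receptor that takes up RBP4 in kidney, read 4.63, 4.72 and 4.62 in Igf1-/- lungs, against 4.96, 4.90 and 4.79 in Igf1+/+ lungs, apart but not called (limma adjusted p = 0.298). The largest differences of the list were those of Lpl, the lipoprotein lipase gene (-0.35, limma adjusted p = 0.442), Ttr, the plasma partner of RBP4 (0.28, 0.659), and Scarb1, a scavenger receptor that takes up carotenoids (-0.26, 0.404). The other 2 probe sets of Scarb1 kept the genotypes apart, at -0.47 and -0.41 (limma adjusted p = 0.211 and 0.323). Stra6, the cell surface receptor for RBP4, differed by 0.030 (limma adjusted p = 0.918).

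Of the 20 measured genes of retinol and retinal oxidation and reduction, 11 were higher and 9 lower (median 0.020). Rdh10, which makes the retinal that the ALDH1A enzymes use, differed by -0.040 (SE 0.075, limma adjusted p = 0.857). Adh4, an alcohol dehydrogenase active on retinol, read 4.61, 4.50 and 4.50 log2 units in Igf1-/- lungs, against 4.24, 4.24 and 4.34 in Igf1+/+ lungs. Its genotypes were apart, at a low level, with a difference of 0.26 (limma adjusted p = 0.224). The retinol dehydrogenase genes Rdh13 (-0.30, limma adjusted p = 0.449) and Rdh11 (-0.21, 0.557) were the others with the largest differences of the list.

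On the breakdown side, 2 of 3 measured genes were higher and 1 lower (median 0.18). Cyp26a1, whose promoter stretch is shown above, read 5.96, 6.45 and 6.65 in Igf1-/- lungs, against 6.03, 6.16 and 6.35 in Igf1+/+ lungs. The lowest and the highest array were both Igf1-/-, and the difference was 0.18 (SE 0.17, limma adjusted p = 0.683). Cyp2s1, a retinoic acid metabolising cytochrome, read 9.18, 9.19 and 9.11 in Igf1-/- lungs, against 9.09, 8.88 and 8.66 in Igf1+/+ lungs. It separated the genotypes without passing the test (0.28, limma adjusted p = 0.347). Cyp1b1, another cytochrome of the list, differed by -0.011 (limma adjusted p = 0.983).

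The partners of the receptors were near level. Of 16 measured receptor partners and cofactors, 10 were higher and 6 lower (median 0.043). Rxra, the chief heterodimer partner, differed by 0.15 (limma adjusted p = 0.499), Rxrb by 0.046 (0.836) and Rxrg by -0.070 (0.853). Nr2f1, an orphan receptor that competes for the same repeats, had the largest difference of its list, -0.27 (limma adjusted p = 0.441). Hdac3, a deacetylase of the corepressor complex, differed by 0.14 (limma adjusted p = 0.564).

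Of 21 measured genes known as retinoic acid targets, 7 were higher and 14 lower (median -0.027). The genotypes were apart at 4 of the 21, 2 in each direction, against 18% of all probe sets. Tgm2, the tissue transglutaminase, read 11.04, 11.01 and 10.92 in Igf1-/- lungs, against 11.44, 11.12 and 11.11 in Igf1+/+ lungs, apart but not called (-0.24, limma adjusted p = 0.387). Hoxa5, a homeobox gene of lung mesenchyme, differed by -0.23 (limma adjusted p = 0.465), and Zfp703, a zinc finger gene, by -0.22 (0.414). Meis2 (-0.22, limma adjusted p = 0.338) was likewise apart on the lower side, and Rai14 (0.16, 0.379) and Hoxb2 (0.12, 0.510) were apart on the higher side. Dhrs3, a retinal reductase that retinoic acid induces, differed by -0.027 (limma adjusted p = 0.945).

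**Figure D3:**
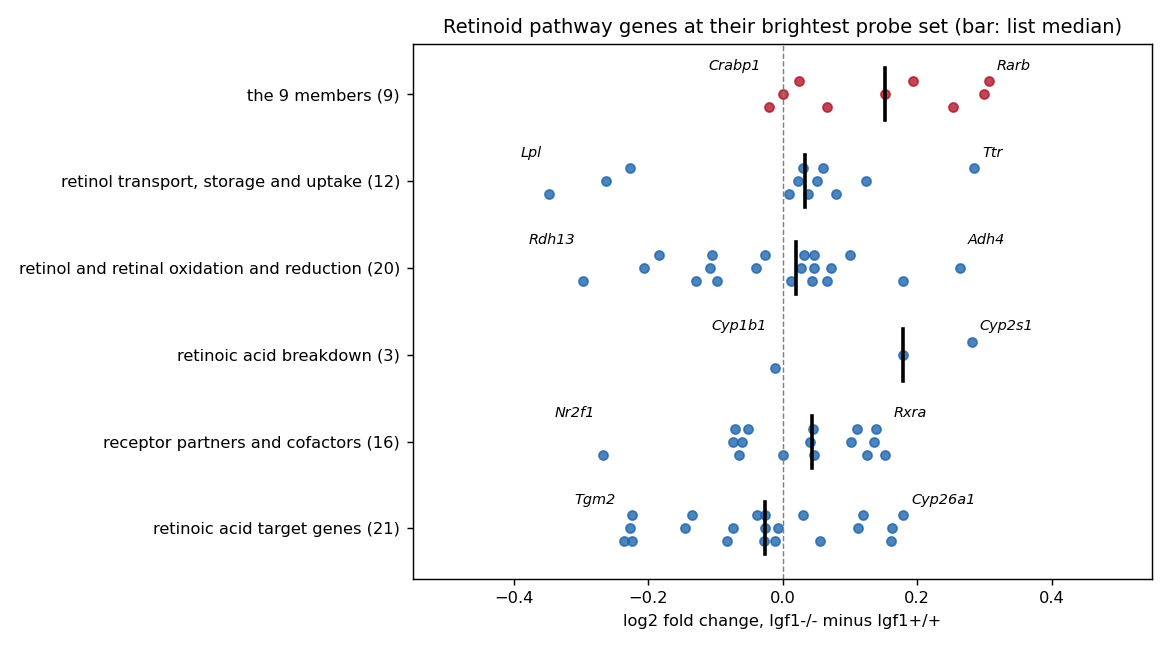
Log2 difference Igf1-/- minus Igf1+/+ at the brightest probe set of each measured gene (x axis) for the 9 genes and the 5 pathway lists (y axis). Each point is a gene and the bar is the list's median. The medians run from -0.027 in the target genes to 0.18 in the breakdown genes, and 0 points were called.

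Igf1 itself was lower on average in Igf1-/- lungs at its 3 probe sets (-0.58, -0.51 and -0.42 log2 units, limma adjusted p = 0.152, 0.267 and 0.327), without passing the test. Its brightest probe set read 8.87, 8.99 and 9.38 in Igf1-/- lungs, against 9.28, 9.85 and 9.65 in Igf1+/+ lungs. The genotypes overlapped there and at 1 more probe set, and the Igf1-/- signal stayed above the table's median level. Whether the probe sets read the deleted stretch was not known here, so these values do not check the labels. The 6 arrays had medians of 6.85 to 6.89 log2 units and correlated at 0.992 to 0.996 over all probe sets.

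Markers of the cell types that could carry these genes were read beside them. The 10 lung identity genes were all measured, 5 higher and 5 lower, with 1 called. Sftpc, the surfactant protein C gene, was at 14.43 ± 0.032 log2 units in Igf1-/- lungs and 14.39 ± 0.024 in Igf1+/+ lungs (SD, n = 3 each), close to the arrays' highest values of 14.49 to 14.56, where a difference may not show. The other surfactant protein genes lay on both sides, Sftpd at -0.42 (limma adjusted p = 0.288), Sftpb at 0.30 (0.363) and Sftpa1 at 0.25 (0.365). Aqp5, a water channel of alveolar type I cells, fell by 0.98 log2 units in Igf1-/- lungs (limma adjusted p = 0.0173), and Pdpn, another gene of these cells, differed by -0.31 (0.297). Of 5 erythroid genes measured, 2 were higher and 3 lower. The higher ones, Hba-a1 and Epb42, were dim, averaging 3.99 and 4.42 log2 units, as was Hbb-bh1 on the lower side (4.94). Slc4a1, the red cell anion exchanger (-1.64, limma adjusted p = 0.000146), and Alas2, of haem synthesis (-0.87, 0.0754), fell, and the list's summed level was 9.68 to 10.2 in Igf1-/- lungs and 10.7 to 11.05 in Igf1+/+ lungs. Among 11 fibroblast genes 7 were higher and 4 lower, and among 4 measured nerve and neural crest genes 3 were higher and 1 lower, with 0 called in either list. At the brightest probe sets, the largest differences among the fibroblast genes were those of Pdgfra (-0.28, limma adjusted p = 0.337), Col1a1 (0.23, 0.541) and Tbx5 (0.16, 0.461). Among the nerve genes they were those of Sox10 (0.19, 0.348), Tubb3 (0.17, 0.472) and Elavl4 (0.074, 0.834). At a dimmer probe set each, Stmn2 (-0.50, limma adjusted p = 0.110) and Sox10 (0.34, 0.135) also kept the genotypes apart. Stmn2 differed by -0.029 at its brightest (0.911).

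Aldh1a2 is a marker of mesothelium, the cell layer that covers the lung. Of 6 measured mesothelial genes, 3 were higher and 3 lower, and the list's summed level was 11.98 to 12.12 log2 units in Igf1-/- lungs, against 12.22 to 12.33 in Igf1+/+ lungs. The sum adds values off the log scale, so its 2 brightest genes weigh most, Msln and the keratin gene Krt19. Krt19 averaged 11.44 in Igf1-/- lungs and 11.53 in Igf1+/+ lungs (limma adjusted p = 0.693). Msln, the mesothelin gene, accounted for the call in that list and fell by 0.65 (limma adjusted p = 0.0389). It read 9.94, 9.95 and 9.68 in Igf1-/- lungs, against 10.6, 10.5 and 10.4 in Igf1+/+ lungs, whereas Aldh1a2 lay on both sides. Gpm6a, a membrane glycoprotein gene, differed by -0.28 (limma adjusted p = 0.457) and Wt1, the Wilms tumour gene, by 0.10 (0.607). Upk3b, a uroplakin of mesothelial cells, read 8.96, 8.36 and 9.13 in Igf1-/- lungs, against 8.61, 8.85 and 8.84 in Igf1+/+ lungs. Like Aldh1a2 it was lowest in Igf1-/- replicate 2 and highest in Igf1-/- replicate 3.

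Aldh1a1 is also expressed by airway epithelium. Of 8 measured club and airway genes, 4 were higher and 4 lower, and the summed levels overlapped, 14.33 to 14.55 log2 units in Igf1-/- lungs and 14.28 to 14.53 in Igf1+/+ lungs. Scgb3a1, a secretoglobin, fell by 1.40 (limma adjusted p = 0.0161). Cyp2f2, a cytochrome of club cells, was apart in the other direction without passing (0.51, limma adjusted p = 0.106), as were Foxj1 of ciliated cells (0.25, 0.270) and Scgb3a2 (0.21, 0.370), whereas the keratin genes Krt18 (-0.36, 0.103) and Krt8 (-0.17, 0.412) were apart on the lower side. Scgb3a2, another secretoglobin, and Sox2, the transcription factor of the proximal airway, were both highest in Igf1-/- replicate 1 and lowest in Igf1+/+ replicate 3, as Aldh1a1 was. The list's other genes did not share that order, among them Scgb1a1, Krt8, Krt18 and Scgb3a1. The part that cell composition takes in these values was not tested.

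**Figure D4:**
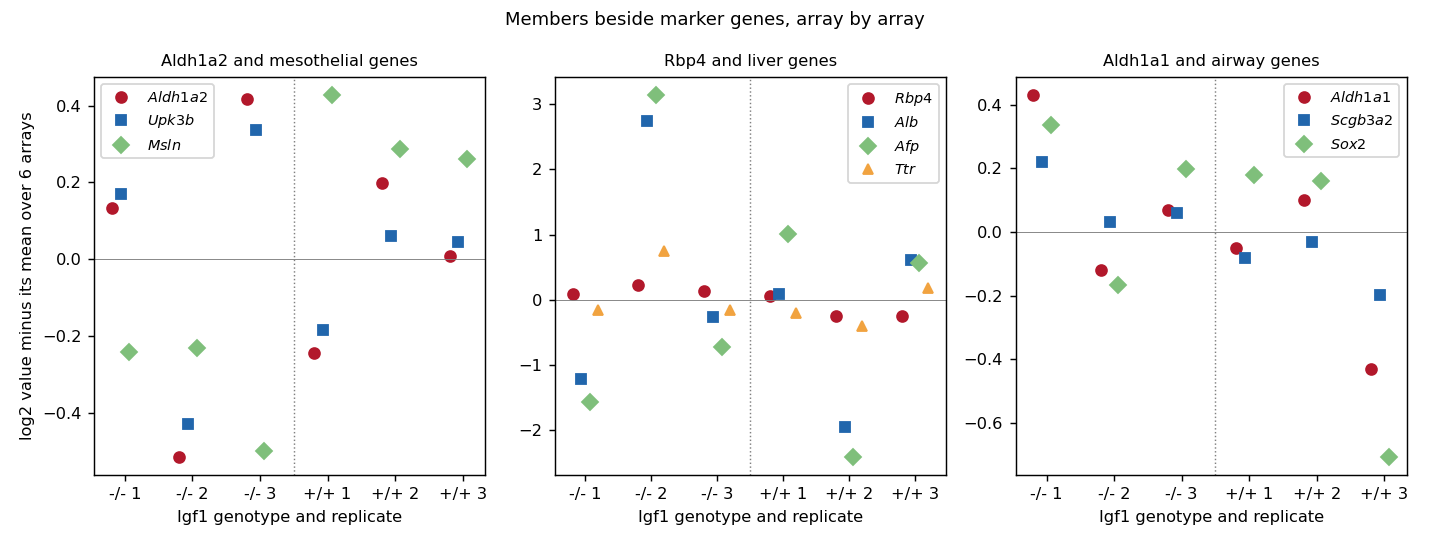
Log2 value of Aldh1a2, Rbp4 and Aldh1a1, each beside marker genes of mesothelium, liver or airway, as the deviation from the gene's mean over 6 arrays (y axis), by array (x axis, Igf1-/- left of Igf1+/+). Upk3b lies near Aldh1a2 on every array while Msln does not, and the liver genes span a far wider range than Rbp4. The airway genes drawn, Scgb3a2 and Sox2, were the most alike to Aldh1a1 in their list and were picked after their values were seen. The list's other genes ran from Pearson r = -0.51 (Krt18) to 0.64 (Foxj1).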

How the data were processed

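RNA from whole lungs of Igf1-/- and Igf1+/+ embryos (3 arrays each) was hybridised to Affymetrix MOE430A 2.0 arrays. The authors summarised 12 arrays (6 lung, 6 cochlear) by RMA, and the deposited values are log2 expression, in which differences of dim signals can be compressed. The cochlear arrays were not used here. After 64 control probe sets were left out, 22626 were tested: 20380 with 1 symbol in the annotation, 691 with several and 1555 with none.

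Genotypes were compared by limma 3.58.1 (R 4.3.3; lmFit and eBayes, genotype only) with Benjamini-Hochberg adjustment over all probe sets, a call being an adjusted p under 0.10. The methods' SAM was not run, since its false discovery rate uses other splits of the arrays. The members and lists were chosen with earlier results of these data known. Named besides the members were called list genes, the 3 largest differences of a list with fewer than 2 of them, and the 3 genes most alike to Rarb. Stra6, Rdh10, Dhrs3, Rxrb, Rxrg, Lrp2, Upk3b, Krt19, Scgb3a2, Scgb1a1, Foxj1, Krt8, Sox2, Sftpa1, Sftpb and Sftpc were added after their values were seen. So were Bnc1, Stmn2, Wdr6, Mrps25, Nelfcd, Meis2, Rai14, Hoxb2, Hba-a1, Epb42 and Hbb-bh1. A gene of several probe sets is given at its brightest. List genes with no singly named probe set (Cyp26b1, Ncor1 and others) were not analysed here. Alternatives covered normalization, dim probe sets, variance model, array weights, the replicate number as a block, and leaving out each array.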

Additional observations from a re-analysis of the deposited data

How the results depend on the processing

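With the replicate number as a block, 0 of the 12 member probe sets were called, as without it, and 138 of all probe sets against 126. Arrays of the same number did not deviate together (correlations -0.039, -0.23 and -0.14, against -0.23 to 0.28 over all pairs across genotypes). With 3 arrays per genotype these values cannot decide whether the numbers pair the arrays. The 126 calls over all probe sets became 204 with a variance trend and robust estimates, 628 with array quality weights and 1 without moderation, and ranged from 45 to 710 when 1 array was left out, the highest without Igf1+/+ replicate 3. Member probe sets called stayed at 0 in every fit at 0.10, and were 1 (Rarb) at 0.20 in the fit reported and with centred arrays, 2 with array quality weights (with Rbp4) and without Igf1+/+ replicate 3 (with Rarg), and 0 in the other fits. Rarb ranged over 0.26 to 0.35 log2 units, with adjusted p of 0.129 to 0.489. Leaving out dim probe sets kept 4 of the 12, with a median of 0.16 and 0 that separated the genotypes, and leaving out 1 array gave 3 to 7 that did. Array quality weights gave 1 called pathway gene, Adh4. Quantile normalization turned Aldh1a3 at its dimmest probe set (-0.015), Crabp2 (-0.049) and the pair Aldh1a2 minus Aldh1a3 (0.013). Array quality weights turned Crabp1 (0.0016) and Crabp2 (-0.038). With 1 array left out, Aldh1a2 ranged from -0.18 to 0.29, Crabp1 from -0.052 to 0.016 and Crabp2 from -0.093 to 0.072. The pairs with both signs were Aldh1a1 minus Aldh1a3 (-0.054 to 0.35), Aldh1a2 minus Aldh1a3 (-0.23 to 0.26), Rara minus Rarg (-0.15 to 0.037) and Crabp1 minus Crabp2 (-0.12 to 0.069). The causes were not tested.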

Other observations

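Across the 6 arrays Aldh1a2 followed Upk3b at both probe sets of that gene (Pearson r = 0.978 and 0.974, Spearman rho = 0.943 for each), ranks 9 and 18 among the other 22625 probe sets. Of the same mesothelial list, Msln (r = -0.27) and Krt19 (r = -0.70) did not, and Wt1 (0.64), Bnc1 (0.26) and Gpm6a (0.19) lay between. The singly named probe sets above the median level most alike to Aldh1a2 were those of Wdr6 (r = 0.996), Mrps25 (0.993) and Nelfcd (0.988). None of these genes is on that list. For Aldh1a1 the values were r = 0.904 with Scgb3a2 and 0.900 with Sox2, ranks 122 and 130 among the other probe sets, and 0.19 with Scgb1a1, -0.083 with Krt8, -0.26 with Scgb3a1 and -0.51 with Krt18. These genes were chosen after their values were seen, the arrays share 2 genotypes, and 6 points describe these arrays only.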
